A study of Mus musculus with 9 samples.

Results

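The nuclear-encoded genes of the mitochondrial respiratory chain and ATP synthase were described in single-nucleus RNA sequencing of mouse kidney after ischemia-reperfusion injury (IRI). They were chosen by symbol: genes starting with Nduf, Uqcr, Cox4, Cox5, Cox6, Cox7, Cox8 or Atp5, and the 4 Sdh genes, leaving out symbols with -ps or ending in Rik or os. The 2 deposited count tables share 16939 genes, and 87 of these met the rule. Of the 87, 7 encode core subunits of complex I, 28 its accessory subunits and 8 its assembly factors. Complex II has 4, complex III 8, complex IV 15 and ATP synthase 17. Another 3 genes that meet the rule are listed in 1 table only (Cox7b2, Cox8b and Ndufa4l2), with at most 18 UMIs (unique molecular identifiers, each standing for 1 captured RNA molecule) in any library, and enter no comparison.

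These proteins sit in the inner mitochondrial membrane. Complexes I and II feed electrons from NADH and succinate into the chain, complexes III and IV pass them on to oxygen, and ATP synthase uses the resulting proton gradient to make ATP. Complexes I, III, IV and ATP synthase also hold subunits encoded by mitochondrial DNA, whereas complex II is built from nuclear genes alone and works in the citric acid cycle as well. The proximal tubule (PT) and the thick ascending limb (TAL), the nephron segments that carry much of the kidney's sodium transport, depend heavily on this pathway.

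The series holds 9 libraries of GFP-positive nuclei, 1 per male mouse aged 11 to 19 weeks. The 4 controls (Cont1, without surgery, and Cont2, Cont3 and Cont4, sham operated) carried Six2TGC; Rosa26rtTA; pTRE-H2BeGFP, which labels the nephron, and were fed doxycycline at 625 mg/kg of food. The 5 injured mice carried Krt20T2A-CE; INTACTnuGFP/+, which labels cells that expressed the injury gene Krt20 and their descendants once tamoxifen (0.05 mg/g) is given, and both renal pedicles were clamped for 18 min. Their kidneys were taken at day 7 (K7_1 and K7_2) or day 28 (K28a, K28b and K28c). Injury, reporter strain, sorted population and drug therefore changed together between controls and injured mice and cannot be told apart. The barcodes of K28a belonged to the v2 set, as did those of the controls. Those of K7_1, K7_2, K28b and K28c belonged to the v3 set, so that at day 7 barcode set and injury cannot be told apart either. K28a also had the highest serum creatinine at 48 h, 0.488 mg/dL against 0.133 to 0.255 mg/dL in the other injured mice.

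Library totals ran from 1833617 to 14641038 UMIs over 27738 nuclei, with medians of 668 to 1938 UMIs per nucleus in controls, 1185 in K28a and 1963 to 4174 in the v3 libraries. No pair of libraries shared more than 26 cell barcodes. Nuclei were grouped into classes by clustering without the respiratory genes and without mitochondrially encoded ones. A class is called "-like" after its markers: Slc34a1, a phosphate transporter of the PT, stood at 3833 to 5082 CPM (counts scaled to a library total of 1e6 UMIs) in control PT-like nuclei, and Slc12a1, the sodium transporter of the TAL, at 4079 to 13437 CPM in TAL-like nuclei of all libraries. PT-like nuclei were split into an uninjured and an injured state by whether markers of mature PT or of injured PT (Havcr1, Vcam1, Krt20 and others) scored higher. UMIs of Slc34a1 were also counted in other classes, at 2187 to 4561 CPM in the 4 to 10 leukocyte-like nuclei of 3 controls and 1746 to 2286 CPM in control TAL-like nuclei. Free RNA and doublets were not measured. In the injured libraries Slc34a1 was 240.2 to 558 CPM in leukocyte-like nuclei.

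The promoters of 6 genes are shown. Uqcr11 and Atp5e had the deepest falls in their complexes in PT-like nuclei at day 28. Atp5g3, Uqcrh, Sdhb and Uqcrfs1 are the 4 of 84 members whose day 28 change was called different between TAL-like and PT-like nuclei. This share, 4.76%, was near the 2.82% of all genes called in that direction, and with barcode set as a term 0 members were called. The sequences are RefSeq promoters (GRCm38.p6), from 250 bases before to 50 bases after the transcript start, with matches to 4 motifs in capitals on either strand. The motifs searched were CGCATGCG, the core of the NRF1 site, AAGGTCA, the site of estrogen-related receptors, CCGGAAG, a site of ETS factors such as GABPA, and AAGATGGC, a site of YY1.
Uqcr11, chr10:80406772-80407071, minus strand: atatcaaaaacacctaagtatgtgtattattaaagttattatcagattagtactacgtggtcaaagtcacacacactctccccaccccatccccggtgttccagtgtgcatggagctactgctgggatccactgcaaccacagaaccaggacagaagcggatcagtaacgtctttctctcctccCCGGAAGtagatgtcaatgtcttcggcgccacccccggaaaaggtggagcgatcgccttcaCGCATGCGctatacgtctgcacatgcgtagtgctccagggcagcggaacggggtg
Atp5e, chr2:174464052-174464351, minus strand: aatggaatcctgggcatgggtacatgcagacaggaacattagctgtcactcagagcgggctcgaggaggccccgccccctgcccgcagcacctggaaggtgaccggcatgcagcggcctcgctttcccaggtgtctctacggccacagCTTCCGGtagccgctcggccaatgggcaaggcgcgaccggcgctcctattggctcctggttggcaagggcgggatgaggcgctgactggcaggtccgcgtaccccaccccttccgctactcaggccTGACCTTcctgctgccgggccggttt
Atp5g3, chr2:73911277-73911576, minus strand: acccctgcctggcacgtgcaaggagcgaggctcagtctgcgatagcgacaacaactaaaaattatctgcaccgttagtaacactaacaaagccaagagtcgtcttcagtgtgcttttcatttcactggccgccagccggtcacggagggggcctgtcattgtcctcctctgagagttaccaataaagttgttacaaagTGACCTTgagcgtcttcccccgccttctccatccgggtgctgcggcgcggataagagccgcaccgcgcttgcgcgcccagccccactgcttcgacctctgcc
Uqcrh, chr4:116075021-116075320, minus strand: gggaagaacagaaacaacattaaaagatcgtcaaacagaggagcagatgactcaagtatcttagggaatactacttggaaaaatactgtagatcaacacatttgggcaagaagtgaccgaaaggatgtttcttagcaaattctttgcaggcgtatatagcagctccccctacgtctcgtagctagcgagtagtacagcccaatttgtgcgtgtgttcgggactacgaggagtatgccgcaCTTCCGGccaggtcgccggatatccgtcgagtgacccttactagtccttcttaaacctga
Sdhb, chr4:140961021-140961320, plus strand: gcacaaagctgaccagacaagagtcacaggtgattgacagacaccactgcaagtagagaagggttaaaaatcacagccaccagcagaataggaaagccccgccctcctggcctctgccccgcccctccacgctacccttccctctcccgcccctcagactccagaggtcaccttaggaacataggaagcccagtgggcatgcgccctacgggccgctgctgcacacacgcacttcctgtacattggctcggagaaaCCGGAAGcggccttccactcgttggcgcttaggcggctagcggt
Uqcrfs1, chr13:30545267-30545566, minus strand: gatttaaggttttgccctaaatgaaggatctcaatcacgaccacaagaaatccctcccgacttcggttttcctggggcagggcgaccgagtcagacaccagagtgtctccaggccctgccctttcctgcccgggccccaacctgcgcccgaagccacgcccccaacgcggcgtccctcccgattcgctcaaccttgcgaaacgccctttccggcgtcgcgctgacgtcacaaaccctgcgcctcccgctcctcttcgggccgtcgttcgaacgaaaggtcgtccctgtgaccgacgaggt
Promoters were found for 71 of the 87 genes. Members were counted by gene, with a match in any promoter of the gene, and the background by promoter, so the units differ. The NRF1 core was in 11 of the 71 (15.5%) against 1.87% of all 32851 promoters of this length. The ETS site was in 18 (25.4%, against 8.86%), the YY1 site in 10 (14.1%, against 2.75%) and the estrogen-related receptor site in 8 (11.3%, against 4.72%). Of the 6 shown, Uqcr11 carried the NRF1 core and an ETS site, Atp5e an ETS site and a receptor site on its reverse strand, Atp5g3 a receptor site and Uqcrh an ETS site, these 2 on the reverse strand as well. Sdhb carried an ETS site on its forward strand, and none of the 4 motifs was in the Uqcrfs1 window. Matches to different motifs did not overlap in these 6.

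In PT-like nuclei the 87 genes took a smaller share of UMIs in every injured library than in any control. Their summed share was 0.495, 0.8288, 0.634 and 0.972% in Cont1 to Cont4, 0.198 and 0.212% in K7_1 and K7_2, and 0.334, 0.181 and 0.179% in K28a, K28b and K28c. The groups did not overlap, and K28a lay between the controls and the v3 libraries. Cytosolic ribosomal protein genes, short and highly expressed genes of an unrelated machine, were ordered in the same way: 0.485, 0.623, 0.506 and 0.823% in the controls, 0.144 and 0.181% at day 7 and 0.357, 0.113 and 0.101% at day 28. In leukocyte-like nuclei the members' share was 1 to 1.7 times that of PT-like nuclei of the same library, over the 8 libraries that had such nuclei. Malat1, a nuclear RNA, took 6.75 to 24% of UMIs over the libraries. The part of RNA from other cells and of barcode set in the difference between controls and injured mice was not tested.

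**Figure D1:**
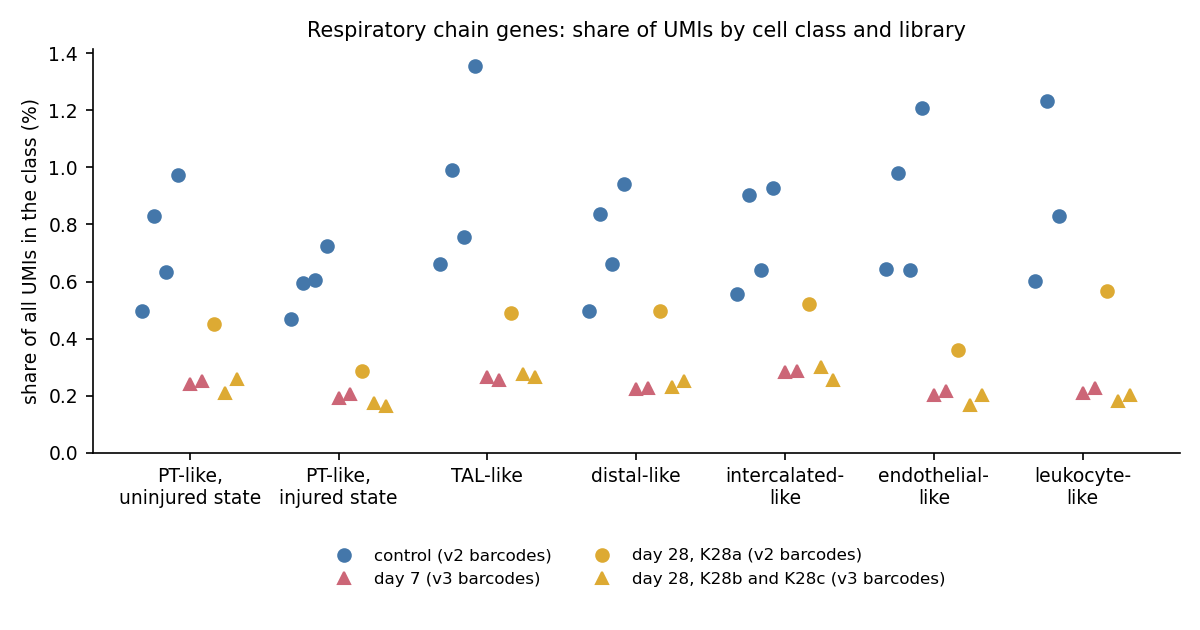
Each point is the summed share of UMIs (%, vertical axis) of the 87 respiratory genes in the nuclei of 1 class in 1 library; circles are v2 and triangles v3 barcodes, and Cont4 has no leukocyte-like point. Control TAL-like nuclei reached 1.35% in Cont4, the v3 libraries lay at or below 0.299% in all 7 classes, and K28a stood above them in each.

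In PT-like nuclei, UMIs were summed per library and each injured group was compared with the controls by edgeR's quasi-likelihood test, with p-values adjusted over all 14211 genes tested. In such sums a lower value is a lower share of the RNA counted, so less of a gene's RNA per nucleus and more of other RNA cannot be told apart. At day 28, 69 of the 85 tested members were lower than in controls and 1 was higher, where 21.2% of all genes were called lower and 24.1% higher. The median log2 change was -2.11 over the members and 0.04 over all genes. At day 7, 70 members were lower and 1 was higher, against 24.7% and 26.3% of all genes, with a median of -2.33. The 2 members not tested, Cox4i2 and Cox6a2, are isoforms of complex IV subunits used in other tissues and did not pass the filter on low counts. By level, 68 of 85 had all 3 day 28 libraries below all 4 controls, as did 21.1% of all genes. At day 7, 75 of 85 had both libraries below all controls, against 31.7% of all genes. Most PT-like nuclei of the injured libraries were in the injured state (2736 of 3126 in K7_1 and 992 of 1340 in K28a), and 12 to 17 nuclei were in that state in each control.

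K28a shares its barcode set with the controls and was read apart. It lay below all 4 controls for 70 of the 85 tested members in PT-like sums, against 32.1% of all genes. In a fit of K28a alone against the controls, 36 of 85 members were lower and 0 higher, where 5.97% of all genes were lower. The median change was -1.39, smaller than the -2.11 of the 3 libraries together. Changes of single genes in K28a alone are given below as sizes only, whether or not they were called. With barcode set as a term in the fit of all 9 libraries, 53 members were lower at day 28 (all genes 8.88%) with a median of -1.35. With the same term 17 members were lower at day 7 (all genes 5.44%) with a median of -1.14. That term rests on the difference between K28a and the 2 other day 28 mice, so it carries any difference between those animals too. With it the day 28 change against controls is in effect that of K28a alone (medians -1.35 and -1.39). This holds in the classes below too, so such fits are no second result.

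**Figure D2:**
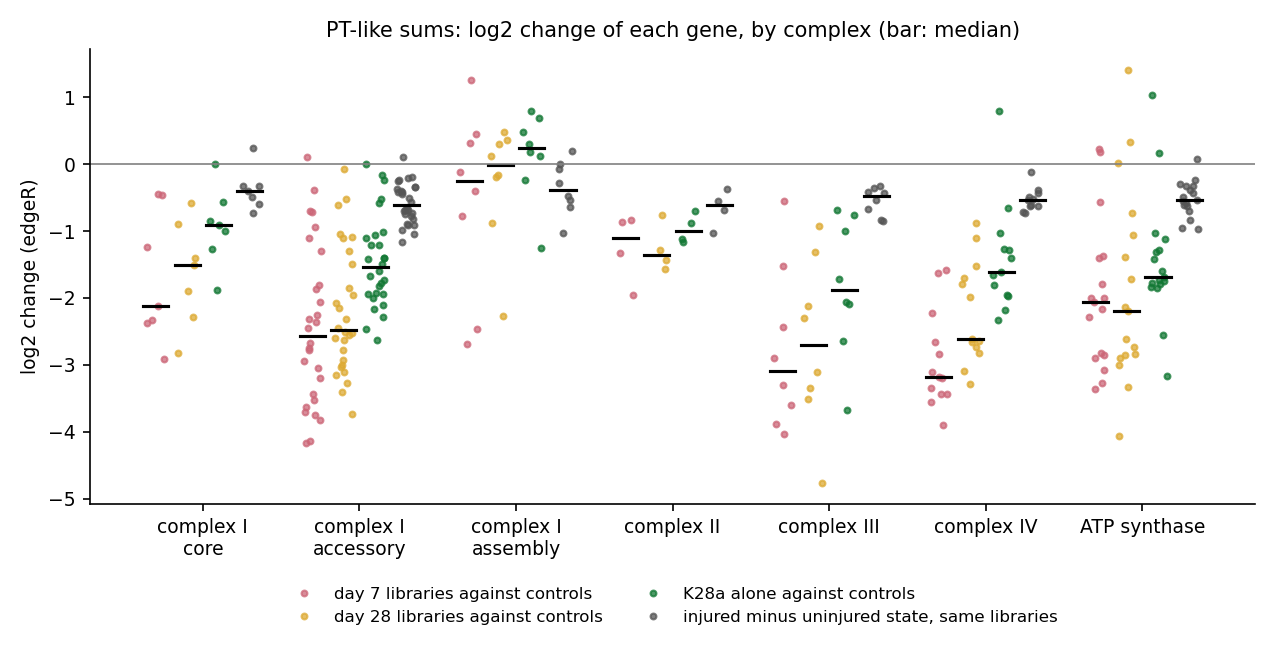
Each point is the log2 change of 1 gene in PT-like sums (vertical axis), grouped by complex, for day 7 and day 28 against controls, K28a alone against controls, and the injured against the uninjured state of the same injured libraries; bars are medians. Complexes III and IV have the lowest medians at day 7 (-3.09 and -3.19), complex I assembly factors lie around 0 at day 28, and the median over all members is -1.39 for K28a alone against -2.11 for all day 28 libraries.

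Among core subunits of complex I, which carry its redox centres, 6 of 7 were lower at day 28 and 5 at day 7 (medians -1.50 and -2.12). Ndufv1, the NADH-binding subunit, had the deepest fall of these at day 28. It stood at 80.3, 98.3, 58.2 and 116 CPM in Cont1 to Cont4, 17 and 23.3 in K7_1 and K7_2, and 23.8, 8.96 and 7.3 in K28a, K28b and K28c. All injured libraries were below all controls, and Ndufv1 fell by 2.83 on the log2 scale at day 28 (SE 0.40, adjusted p = 0.00016). Ndufs1 and Ndufs3, iron-sulfur and structural core subunits, had the most UMIs of this group in controls. Ndufs1 was 108, 98.3, 135 and 78.8 CPM in controls, 71.1 and 83.7 at day 7 and 71, 71.6 and 68.1 at day 28. Its day 28 libraries lay just below Cont4 and it fell by 0.59 (SE 0.21, adjusted p = 0.036), while at day 7 K7_2 overlapped the controls and the change of -0.45 was not called. In K28a alone the Ndufs1 change was -0.57. Ndufs3 fell by 1.40 at day 28 (SE 0.22, adjusted p = 0.00037), from 97.2 to 136 CPM in controls to 35 to 55.6.

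Accessory subunits surround the core of complex I, and 25 of 28 were lower at day 28 and 25 at day 7. Ndufs6, which helps the last steps of assembly, changed most at day 28. Its levels were 44.4, 93.7, 82.1 and 114 CPM in controls, 8.33 and 9.79 at day 7 and 13.4, 4.72 and 3.37 at day 28. K28a, at 13.4 CPM, lay between the controls and the other day 28 libraries, and the gene fell by 3.73 (SE 0.46, adjusted p = 5.8e-05). Ndufa6, which with Ndufs4 had the most UMIs of this group in controls, was 122, 198, 182 and 210.1 CPM in controls, 13.7 and 13.3 at day 7 and 53.2, 32.4 and 23.6 at day 28. It fell by 3.71 at day 7 (SE 0.37, adjusted p = 1.2e-05) and fell by 2.32 at day 28 (SE 0.30, adjusted p = 7e-05). Ndufs4, a late-joining accessory subunit encoded by a gene of 100 kb, was not called. Its groups overlapped, with 87.7 to 168 CPM in controls, 126 to 152 at day 7 and 115 to 129 at day 28, and its day 28 change was -0.07 (SE 0.22, adjusted p = 0.81).

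The 8 assembly factors, which build complex I without staying in it, had the median nearest 0 of the 7 groups. At day 28, 1 was lower, Ndufaf8, and none was higher, with a median of -0.02. Ndufaf8 was 18.3 to 28.1 CPM in controls and 9.44, 2.74 and 3.74 in the day 28 libraries and fell by 2.28 (SE 0.40, adjusted p = 0.00068). Ndufaf2 and Ndufaf4 had the most UMIs of this group in controls. Ndufaf2 ranged from 49.2 to 63.8 CPM over the 9 libraries and Ndufaf4 from 19.8 to 63.1, with day 28 changes of -0.18 and -0.17 that did not pass. Ndufaf5, which modifies the core subunit Ndufs7 during assembly, was the member that rose at day 7. It stood at 10.3, 8.54, 10 and 3.78 CPM in controls, 23.2 and 17.8 at day 7 and 10.4, 11 and 11.4 at day 28. Both day 7 libraries were above the 7 others, a rise of 1.27 (SE 0.32, adjusted p = 0.0059), which was not called without K7_1 or with barcode set as a term.

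All 4 genes of complex II were lower at both times, with a median of -1.36 at day 28 against -2.70 in complex III. Sdha, the subunit that oxidizes succinate, was 111, 138, 128 and 81.4 CPM in controls, 70.6 and 57.8 at day 7 and 70.5, 68.6 and 63.8 at day 28. The day 28 libraries were below every control by a small margin, and Sdha fell by 0.77 (SE 0.21, adjusted p = 0.011). Sdhb, the iron-sulfur subunit, was 111, 124, 101 and 109 CPM in controls, 37.3 and 51.5 at day 7 and 49.7, 33.8 and 41.2 at day 28. Controls and injured libraries were well separated and Sdhb fell by 1.44 (SE 0.21, adjusted p = 0.0002), 2.71-fold. Sdhc and Sdhd anchor the enzyme in the membrane. Sdhc fell by 1.28 (SE 0.22, adjusted p = 0.00058), from 69.4 to 119 to 35.9 to 42.7 CPM, and Sdhd fell by 1.57 (SE 0.33, adjusted p = 0.0021), from 22.5 to 39.5 to 6.36 to 16.4 CPM. In K28a alone the changes were -1.16 for Sdhb, -0.70 for Sdha, -1.12 for Sdhc and -0.87 for Sdhd.

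All 8 genes of complex III, which passes electrons from ubiquinol to cytochrome c, were lower at day 7 and at day 28. Uqcr11, a small subunit, had the deepest fall of any member at day 28. It was 76, 211, 161 and 322 CPM in controls, 8.89 and 17.2 at day 7 and 14.9, 4.24 and 5.05 at day 28. Every injured library, K28a included, was at most 17.2 CPM, and Uqcr11 fell by 4.77 (SE 0.59, adjusted p = 5.5e-05). In K28a alone its change was -3.68. The controls themselves differed, with Cont1 the lowest and Cont4 the highest. Uqcr10 and Uqcrq, the complex III genes with the most UMIs in controls, fell too. Uqcr10 was 196, 306, 279 and 398 CPM in controls and 70.1, 12.9 and 10.1 at day 28 (-3.35, SE 0.59, adjusted p = 0.0007). Uqcrq was 125, 253, 236 and 299.6 CPM in controls and 36.3, 14.2 and 13.1 at day 28 (-3.50, SE 0.41, adjusted p = 4.1e-05).

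Of the 13 tested genes of complex IV, cytochrome c oxidase, 11 were lower at day 28 and 12 at day 7. Cox6c, a small nuclear-encoded subunit, fell most at day 28. It was 81.8, 264, 165 and 325 CPM in controls, 14.4 and 13.5 at day 7 and 41.2, 11.2 and 15.3 at day 28, and fell by 3.29 (SE 0.53, adjusted p = 0.00037). Cox8a, the ubiquitous form of subunit VIII, was 179.5, 337, 322 and 326 CPM in controls, 33.2 and 30.6 at day 7 and 83.5, 32.4 and 26.7 at day 28. Cont1 was the lowest control and K28a the highest injured library, with a gap between them, and Cox8a fell by 2.65 (SE 0.39, adjusted p = 0.00019). Cox6a1, its counterpart for subunit VIa, fell by 2.61 (SE 0.46, adjusted p = 0.00066), from 112 to 296 to 20.8 to 72 CPM, with a change of -1.66 in K28a alone. Cox6b1, Cox7a2 and Ndufa4, which was first assigned to complex I, fell by 2.82, 2.64 and 3.09 (adjusted p = 0.00017, 0.00015 and 0.00015). Cox7a2l, which joins complex III to complex IV in supercomplexes, fell by 1.52 (SE 0.21, adjusted p = 0.00014) and was as low in K28a (14.4 CPM) as in K28b and K28c (16.4 and 15.2 CPM). The tissue-restricted isoforms were near the detection limit. Cox6b2, a testis form, was 3.27 to 5.05 CPM in controls and Cox7a1, a muscle form, 0.892 to 5.05 CPM. The fitted change of Cox7a1 was -3.44 at day 7 (SE 0.98, adjusted p = 0.012) on 5 and 0 UMIs in K7_1 and K7_2.

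Of the 17 genes of ATP synthase, 14 were lower at day 28 and 14 at day 7. Atp5b, the catalytic beta subunit, was 277, 361, 326 and 357 CPM in controls, 81.5 and 76.3 at day 7 and 102, 61.9 and 63.8 at day 28. K28a was the highest injured library, and Atp5b fell by 2.13, or 4.38-fold (SE 0.23, adjusted p = 2.2e-05). K28a alone gave -1.69. Atp5l, subunit g of the membrane part, fell by 2.19 (SE 0.36, adjusted p = 0.00043), from 112 to 219.5 to 25.7 to 68.1 CPM. Atp5e, the small epsilon subunit of the central stalk, was 98.1, 202, 163 and 235 CPM in controls, 25.1 and 46.3 at day 7 and 19.4, 4.81 and 10.1 at day 28. The day 28 libraries, K28a too, were below those of day 7, and Atp5e fell by 4.06 against controls (SE 0.48, adjusted p = 4.2e-05). The difference between day 28 and day 7 was -1.78 and missed the threshold (adjusted p = 0.058). Atp5g1, Atp5g2 and Atp5g3 encode the same mature c subunit of the rotating ring. Atp5g1 and Atp5g3 fell by 2.89 and 3.33, while Atp5g2 fell by 1.06 (adjusted p = 0.00025, 2.6e-05 and 0.0012). Atp5g2 stood at 55.3, 65.1, 67.8 and 80.1 CPM in controls and 26.8, 34.5 and 33.7 at day 28. The difference in change between these genes was not tested.

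Atp5o, the stalk subunit that confers sensitivity to oligomycin, was the member that rose at day 28. It was 7.14, 16.8, 11.2 and 11.4 CPM in controls, 4.41 and 2.16 at day 7 and 23.8, 35.4 and 32.5 at day 28. All 3 day 28 libraries, whichever their barcode set, were above all others, with a rise of 1.41 against controls (SE 0.32, adjusted p = 0.0034) and of 3.19 against day 7 (SE 0.43, adjusted p = 0.0016). K28a alone gave 1.04. With barcode set as a term the rise of Atp5o was also 1.04 and was not called. The 1 member called higher in that fit was Cox4i2 (4.63). At day 7 it fell by 1.78 against controls (SE 0.40, adjusted p = 0.0032). The identity of these reads is uncertain. In GENCODE mouse release 21 (GRCm38) the gene matched to this name lies at chr16:91684398-91926982 and overlaps the genes Donson and Cryzl1 on its own strand, and the tables hold another entry, Atp5o.1, with 1.99 to 7.57 CPM. The day 28 change of Atp5o.1 was not called (0.01, adjusted p = 0.98). Whether Atp5o itself or an overlapping transcript was counted cannot be told from the tables.

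**Figure D3:**
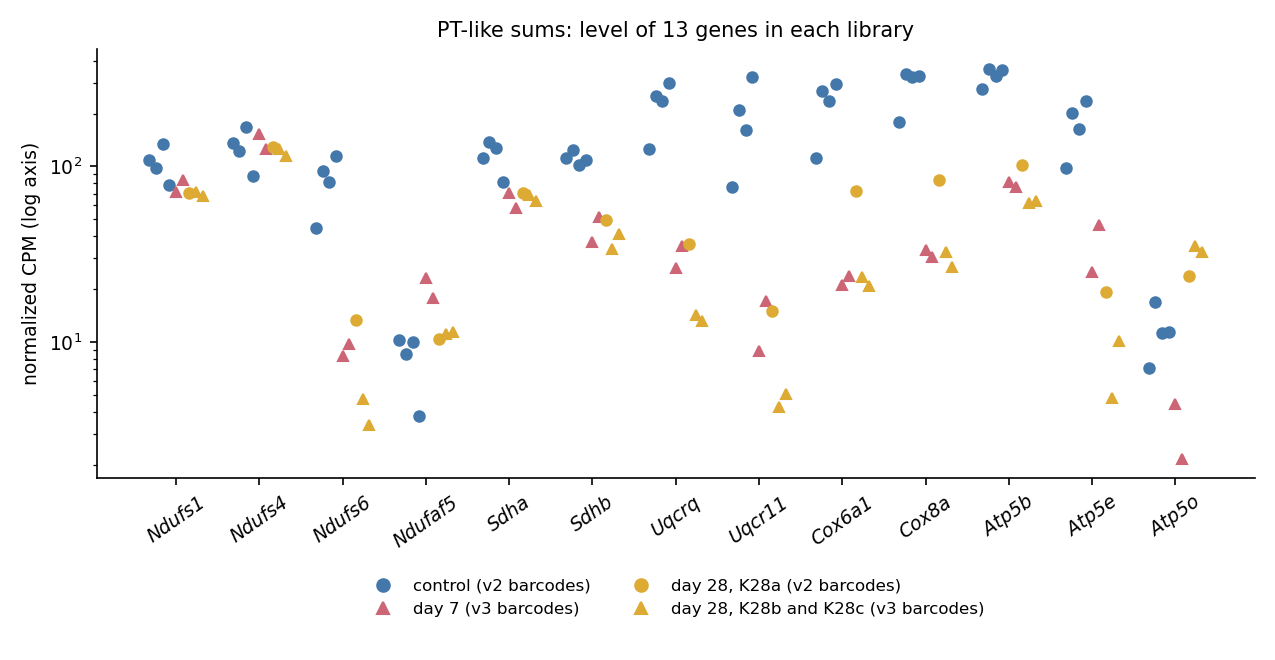
Each point is the normalized CPM (log axis) of a gene in the PT-like sum of 1 library; circles are v2 and triangles v3 barcodes. Uqcr11 falls from 76 to 322 CPM in controls to 4.24 to 14.9 at day 28, Ndufs4 overlaps in all groups, Ndufaf5 is highest in the 2 day 7 libraries and Atp5o in the 3 day 28 libraries.

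Genes of related function were read beside the members. Of the mitochondrially encoded genes, whose RNA is made inside the organelle, all 12 tested were lower at both times (median -3.48 at day 28). Their share of UMIs was 0.0818 to 0.2% in controls, 0.0716% in K28a and 0.00857 to 0.0118% in the v3 libraries, and the part of this gap in the result was not tested. Enzymes of the citric acid cycle, 16 genes that overlap the members in no symbol, had 12 lower at day 28 and 11 at day 7, with medians of -0.97 and -1.01. Of 34 respiratory chain and assembly genes whose symbols fall outside the rule, 12 were lower and 2 higher at day 28 (median -0.55). Among cytosolic ribosomal protein genes, 58 of 80 were lower at day 28 (median -1.92) and 64 at day 7. Against controls, the members and the genes of translation thus had medians -2.11 and -1.92 at day 28.

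Transcriptional regulators of the pathway were mixed: of 15 tested, 4 were lower at day 28 and 5 lower and 1 higher at day 7. At day 28 this was 26.7% lower, near the 21.2% of all genes, and at day 7 33.3% against 24.7%. Ppargc1a, the coactivator of mitochondrial biogenesis, was 346, 330.0, 426 and 276 CPM in controls, 178 and 169 at day 7 and 125, 148 and 143 at day 28. K28a was as low as the v3 libraries, and Ppargc1a fell by 1.31 (SE 0.20, adjusted p = 0.00025). Esrra, the nuclear receptor that works with it, was 224, 168, 191 and 223 CPM in controls, 64.9 and 83.5 at day 7 and 85, 50.7 and 61.7 at day 28, and fell by 1.63 (SE 0.23, adjusted p = 0.00015). Ppara, a receptor that drives fatty acid oxidation, and Tfam, which maintains mitochondrial DNA, fell by 1.29 and 0.79 (adjusted p = 0.0012 and 0.04), and Ppargc1b fell by 0.70 at day 7 (adjusted p = 0.019). Nrf1, the factor named for these genes, rose at day 7 by 0.96 (SE 0.23, adjusted p = 0.0045), with 235 and 244 CPM against 102 to 140.5 in controls.

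The change of the members differed with the length of their genes. The members are short, with a median span of 7.72 kb in the genome against 25.7 kb over all genes. Of the 8 tested members longer than that (Atp5o, Ndufa10, Ndufa9, Ndufaf2, Ndufaf5, Ndufs1, Ndufs4 and Sdha), 4 were lower at day 28, with a median of -0.38. Of the 76 at or under it, 65 were lower, with a median of -2.28. For Atp5o the length is that of the gene model given above, whose match to the counted reads is uncertain. Short genes in general were lower, though by less. The 2813 shortest genes tested, up to 9.185 kb, had a median of -0.58 at day 28, and the 50 members among them -2.61. At day 7 the same genes had -1.08 and the members -2.90. With the trend on gene length removed from each sum, 68 members were lower at day 28 with a median of -1.71, and 71 at day 7 with a median of -1.59. Of all 14211 genes, 3250 were lower at day 28 and 3490 at day 7 in these fits.

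**Figure D4:**
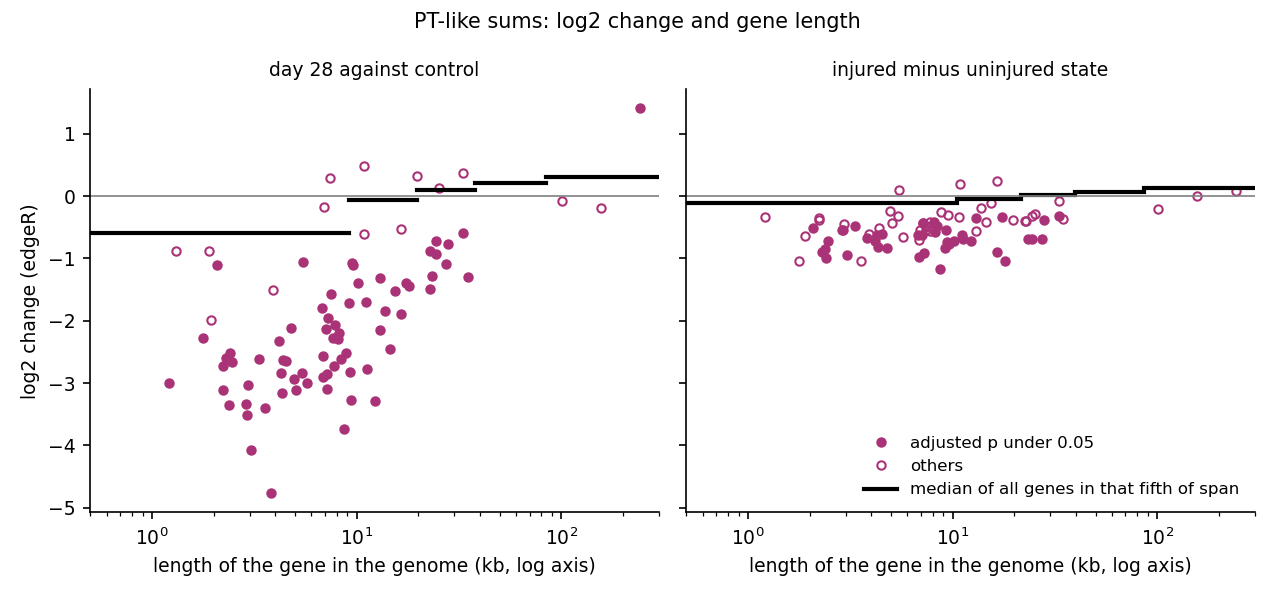
Each point is 1 respiratory gene, with the length of its gene in kb (log axis) across and its log2 change in PT-like sums up; filled points passed the test. Black lines are the median of all genes over 5 equal groups by length. At day 28 (left) members among the shortest genes, up to 9.185 kb, lie far below the line of all genes. Atp5o lies above the line, drawn at the 243 kb of a gene model whose match to the counted reads is uncertain. Between the states of the injured libraries (right) the members lie in a narrow band between -1.16 and 0.24.

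Between day 28 and day 7, 2 of 85 members were higher and 0 lower, against 4.32% and 1.35% of all genes. At an unadjusted p under 0.05, a count taken for members only here and below, 8 were higher and 2 lower. DESeq2 called 6 and 1, against 1049 and 371 of all 14211 genes. Besides Atp5o, Ndufa6 was called higher, by 1.40 (SE 0.35, adjusted p = 0.036). The median change was 0.15 with K28a and -0.24 without it, when 2 members were higher and 4 lower. Of all 14340 genes, 702 were higher and 276 lower without K28a. Complex IV had the highest median, 0.60, over 13 genes of which none was called. That value rested on K28a, and without it the median of the same genes was -0.02.

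The uninjured-state nuclei of the injured libraries were compared with those of controls, to read the genes outside the injured state. At day 28, 55 of the 82 tested members were lower and 1, Atp5o, was higher (1.38, SE 0.34, adjusted p = 0.015), against 10.5% and 12% of all genes. The median was -1.66. By role, 4 of 7 core and 22 of 28 accessory subunits of complex I were lower, 6 of 8 genes of complex III, 10 of 11 of complex IV and 13 of 17 of ATP synthase, while none of the 4 genes of complex II and of the 7 assembly factors tested was called. Uqcr11 was 73.6, 215, 153 and 339 CPM in controls and 18.4, 4.47 and 9.87 in K28a, K28b and K28c. It fell by 4.41 (SE 0.60, adjusted p = 0.00085), with every injured library below every control. Sdhb was 110.2, 126, 96.1 and 116 CPM in controls and 80.8, 42.7 and 102 at day 28, where K28c overlapped the controls and the change of -0.60 was not called (adjusted p = 0.14).

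In K28a alone, edgeR called 0 members lower and 0 higher (all genes 0.0602% lower), with a median of -0.93. At an unadjusted p under 0.05, 34 members were lower and 3 higher, with no such count taken over all genes. With barcode set as a term 0 members were called lower (35 unadjusted), against 19 of all 12170 genes. Without K28b, 31 members were lower (all genes 398 of 10853). The summed share in uninjured-state nuclei of K28a, 0.452%, lay below that of Cont1, 0.496%. The clusters differed too. Of the 348 uninjured-state nuclei of K28a, 306 lay in clusters made up mostly of control nuclei, against 7 of 644 in K28b and 2 of 165 in K28c.

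Injured-state and uninjured-state PT-like nuclei of the same injured library share mouse, strain, drug and barcode set, and were compared within the 5 libraries. Members were lower in the injured state: 41 of 83 tested were called lower and 0 higher, against 18.4% and 18.5% of all genes. At an unadjusted p under 0.05, 55 were lower and 0 higher, with no such count taken over all genes. DESeq2 called 28 lower and 0 higher, against 1884 and 1904 of all 11852 genes. The median was -0.54, against 0.01 over all genes. The summed share was 0.192, 0.207, 0.285, 0.174 and 0.165% in the injured state of K7_1, K7_2, K28a, K28b and K28c and 0.24, 0.252, 0.452, 0.21 and 0.258% in their uninjured state. It was lower in 5 of 5 libraries, at 0.631 to 0.83 times. Gene by gene, 49 of 83 members were lower in all 5 libraries, against 20.4% of all genes, and 24 in 4, against 13.6%. Of the cytosolic ribosomal protein genes, 8 of 77 were lower and 1 higher (median -0.18), and their share was 0.657 to 1.06 times that of the uninjured state, below 1 in 3 of 5 libraries. UMIs per nucleus were close between the states, at 3868, 2370.0, 1279, 3101 and 4649.7 in the injured and 3822, 2411, 1495, 3020.2 and 4644 in the uninjured state.

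The summed share of complex II had the lowest median ratio between the states of the 7 groups, 0.68, with 3 of its 4 genes called. In CPM of the injured against the uninjured state, Sdhb was 34 against 66.2 in K7_1, 48.6 against 93 in K7_2, 42.8 against 89.4 in K28a, 33.2 against 47 in K28b and 32.9 against 113 in K28c. It was lower in the injured state of every library and fell by 1.03 (SE 0.16, adjusted p = 0.00049), 2.05-fold. Sdhc fell by 0.68 (SE 0.13, adjusted p = 0.0016) and Sdha fell by 0.37 (SE 0.10, adjusted p = 0.0098), both lower in 5 of 5 libraries, and Sdhd was -0.54 and not called (adjusted p = 0.094). In complex I, 2 of 7 core and 11 of 28 accessory subunits were lower and no assembly factor was called. Ndufs6 changed most, and was 8.09 against 11.1 in K7_1, 8.63 against 22.7 in K7_2, 10.7 against 26.4 in K28a, 4.27 against 8.2 in K28b and 2.16 against 12.3 in K28c. It fell by 1.16 (SE 0.28, adjusted p = 0.0068). The core subunit Ndufs3 fell by 0.73 (SE 0.11, adjusted p = 0.00047), from 53.3 to 102 to 35.6 to 49.2 CPM. Ndufab1, an acyl carrier protein that is also a subunit, and Ndufb10 fell by 0.90 and 0.99 (adjusted p = 0.006 and 0.0039).

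Complex III had 6 of 8 genes lower, led by Uqcr10, which fell by 0.84 (SE 0.15, adjusted p = 0.0012). In complex IV, 8 of 11 were lower. Cox8a was 31.2 against 52.9 in K7_1, 29.8 against 48.9 in K7_2, 72.6 against 148 in K28a, 32.6 against 42.1 in K28b and 26.4 against 45.1 in K28c, and it fell by 0.72 (SE 0.13, adjusted p = 0.00095). Of the ATP synthase genes, 11 of 17 were lower, among them Atp5a1 and Atp5b of the catalytic head, which fell by 0.83 and 0.63 (adjusted p = 0.00029 and 0.0017). Of the c subunit genes, Atp5g1 fell by 0.97 (SE 0.18, adjusted p = 0.0017) and Atp5g3 fell by 0.54 (SE 0.19, adjusted p = 0.049), while Atp5g2 was -0.30 and not called. Atp5o (0.08), Ndufaf2 (0.01) and Cox7a2l (-0.11) had changes near 0 that were not called. Mitochondrially encoded genes were lower for 7 of 9 and citric acid cycle enzymes for 8 of 16.

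**Figure D5:**
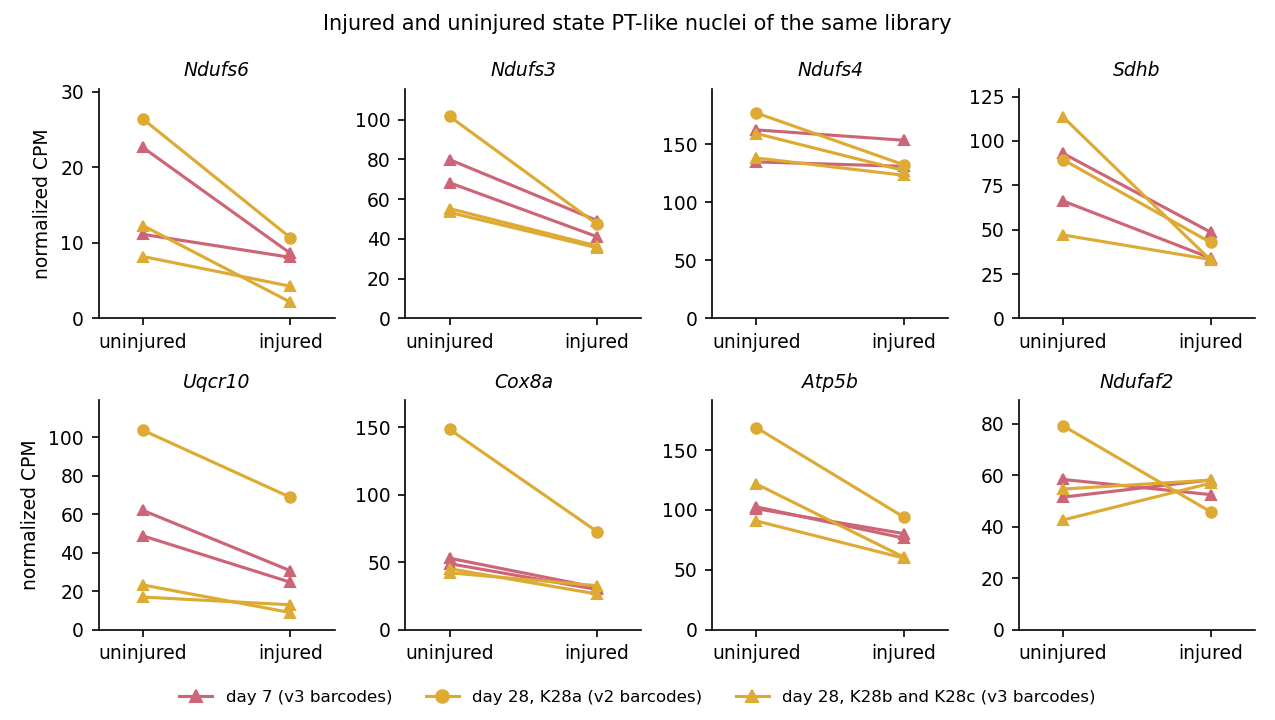
Each line joins the normalized CPM of a gene in uninjured-state and injured-state PT-like nuclei of 1 injured library, with its own vertical axis from 0 for each of 8 genes; the circles are K28a and the triangles v3 libraries. Ndufs6, Ndufs3, Sdhb, Uqcr10, Cox8a and Atp5b are lower in the injured state in all 5 libraries, Ndufs4 is lower with a fitted change of -0.20 (adjusted p = 0.13), and the lines of Ndufaf2 cross.

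Of 15 regulators tested between the states, 6 were lower and 1 higher, against 18.4% and 18.5% of all genes. Unlike the members, the regulators, ribosomal protein genes and citric acid cycle enzymes were not left out of the clustering. Their tests between states or classes are therefore not independent of how the nuclei were grouped. Ppara fell by 1.68 (SE 0.13, adjusted p = 4.3e-06), Ppargc1b fell by 1.29 (SE 0.11, adjusted p = 5.4e-06), Esrra fell by 1.14 (SE 0.11, adjusted p = 2e-05) and Ppargc1a fell by 0.90 (SE 0.10, adjusted p = 3.7e-05). Esrrb and Polrmt, the mitochondrial RNA polymerase, were also lower (-0.87 and -0.52, adjusted p = 0.04 and 0.04996), and Pprc1, another coactivator, was higher (0.59, adjusted p = 0.02). Without K28a, 27 members were lower, against 2023 of all 12718 genes. In K28a, 775 of 992 injured-state nuclei came from 1 cluster with Vcam1, Ccl2 and Cxcl1 among its leading genes, against 995 of 2664 from the largest cluster of K28b. One injured-state cluster of 479 nuclei had raised markers of both states, with Cyp7b1 and Slc7a12 among its leading genes. Without it, a setting chosen after the data were seen, 45 members were lower (median -0.54), against 2210 of all 11895 genes.

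In TAL-like nuclei at day 28, 53 of the 79 tested members were lower than in controls and 0 higher. Of all genes, 10.7% were lower and 7.35% higher. The median of the members was -1.88. DESeq2 called 51 members lower and 0 higher, against 714 and 475 of all 7729 genes. At an unadjusted p under 0.05, counted for members only, 62 were lower and 0 higher. In K28a alone 1 was lower (all genes 0.712%, median -1.02), and with barcode set as a term 1 was. Of all 8920 genes, 47 were lower with that term. Without K28b 33 members were lower (all genes 417 of 7261). With the trend on gene length removed, 33 members were lower (all genes 711 of 7729) and the median was -0.96. Uqcr11 again had the deepest fall, -4.62 (SE 0.69, adjusted p = 0.00015), with 92, 223, 134 and 491 CPM in controls and 23.5, 4.14 and 5.69 at day 28. Atp5b was 378, 451, 386 and 560.4 CPM in controls and 182, 120.0 and 76.8 at day 28 (-1.85, SE 0.28, adjusted p = 0.00018). Sdhb was 126, 141, 145 and 138 CPM in controls and 135, 66.2 and 82.5 at day 28 (-0.61, adjusted p = 0.13), where K28a lay within the controls. The clusters behind the class differed by library: 109 of 149 TAL-like nuclei of K28a lay in clusters mostly of control nuclei, against 103 of 182 in K28b and 40 of 82 in K28c.

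The difference between the 2 classes in the day 28 effect was tested itself, in a fit with a term for each library. It was called for 4 of 84 members, all with the smaller fall in TAL-like nuclei, and for 0 in the other direction, against 2.82% and 3.9% of all genes. At an unadjusted p under 0.05 23 were higher and 0 lower, with no such count taken over all genes. DESeq2 called 2 and 0, against 163 and 387 of all 12255 genes. The count higher was 8 without Cont1 (all genes 352 of 12188) and 2 without K28b (all genes 212 of 12165). Levels here are normalized over both classes together and so differ slightly from those given above. The median difference was 0.38. Sdhb was 119, 134, 104 and 121 CPM in PT-like and 114, 117, 126 and 109.6 in TAL-like sums of the controls, and 55.7, 35.8 and 44.3 and 117, 64.2 and 79.7 in those of K28a, K28b and K28c. In each day 28 library the PT-like level was the lower one, a difference of 0.92 (SE 0.25, adjusted p = 0.011). Atp5g3 was 109, 231, 164 and 227 CPM in PT-like and 98.9, 211, 116 and 274 in TAL-like sums of the controls, and 32.3, 14 and 12.1 and 61.3, 32.1 and 27.5 in those of K28a, K28b and K28c. In each day 28 library the TAL-like level was higher than the PT-like one, a difference of 1.24 (SE 0.31, adjusted p = 0.0058). Uqcrh, the hinge protein of complex III, and Uqcrfs1, its Rieske iron-sulfur protein, gave 1.01 (SE 0.27, adjusted p = 0.009) and 1.54 (SE 0.42, adjusted p = 0.011). Uqcrfs1 was 46, 10 and 24.7 CPM in TAL-like nuclei of K28a, K28b and K28c, highest in K28a. With barcode set as a term 0 members were called (7 higher unadjusted), against 82 higher and 250 lower of all 13214 genes. Ppargc1a, Esrra and Ppargc1b also differed (1.32, 1.18 and 0.93, adjusted p = 1.5e-07, 9.4e-05 and 0.0017), and Ppargc1a was 1152, 661, 805 and 685 CPM in control and 1001, 770.4 and 792 in day 28 TAL-like sums.

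Among the 4 controls alone, where strain, drug and barcode set are shared, members were more often called higher than lower in TAL-like against PT-like nuclei. Of 80 tested, 20 were higher and 0 lower, against 17.3% and 19.8% of all genes, with a median of 0.24. At an unadjusted p under 0.05 27 were higher and 0 lower, with no such count taken over all genes. DESeq2 called 11 higher and 0 lower, against 1274 and 1194 of all 8265 genes. Without a filter on low counts edgeR called 3 higher (all genes 1579 of 16908), and without Cont1 6 (all genes 876 of 6146). The summed share was 0.663, 0.99, 0.758 and 1.35% in TAL-like nuclei of Cont1 to Cont4, above the PT-like share in each. It was above it in all 9 libraries, at 1.19 to 1.53 times. Of the ribosomal protein genes, 15 of 67 were lower and 0 higher. Ndufaf5 had the largest called difference, 1.60 (SE 0.36, adjusted p = 0.00035), from 10.2, 8.4, 9.47 and 3.95 CPM in PT-like to 34.6, 28.7, 23 and 14.8 in TAL-like sums. Cox7b, a subunit of complex IV, was 94.9, 144, 134 and 169 CPM in PT-like and 176, 201, 184 and 356 in TAL-like sums, higher in each control by a fitted 0.73 (SE 0.13, adjusted p = 1.4e-05). Ndufab1, Ndufaf3 and Atp5s gave 0.74, 0.96 and 0.94. None of the genes of complexes II and III was called. Ppargc1a was higher in TAL-like nuclei (1.33, SE 0.12, adjusted p = 9.4e-12) and so was Esrrb (6.03, SE 0.21, adjusted p = 2e-25), a receptor of the same family as Esrra, while Ppara was lower (-1.12, SE 0.13, adjusted p = 2.8e-09). Slc34a1 was counted in TAL-like nuclei too, as given above, and the part of RNA from other cells in the size of the differences was not tested.

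Nuclei of the distal convoluted and connecting tubule and principal cells, pooled as distal-like, were compared with PT-like ones in the same controls. Here 1 of 80 members was higher and 5 were lower, against 14.7% and 16.6% of all genes (median -0.08). Ndufaf5 was again the one higher (1.41, SE 0.41, adjusted p = 0.0059). Ndufaf6, another assembly factor, was 37.7, 36.8, 46.4 and 39.5 CPM in PT-like and 17.2, 10.9, 23.1 and 32.1 in distal-like sums, lower in each control (-1.10, SE 0.31, adjusted p = 0.0044). The others lower were Ndufv3, Uqcrq, Cox7a2 and Uqcr10 (-0.64, -0.47, -0.46 and -0.34).

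Within the control PT, the S3 segment was compared with S1-S2. Of 82 tested, 2 members were higher and 4 lower, against 10.4% and 10.1% of all genes, with a median of -0.06. Both genes higher were assembly factors of complex I. Ndufaf4 was 37.5, 39.4, 42.4 and 22.2 CPM in S1-S2-like and 67.4, 64.5, 67.8 and 54.9 in S3-like sums, higher in every control without overlap (0.78, SE 0.13, adjusted p = 9.4e-05). Ndufaf6 was 27.3, 29.7, 42.6 and 25.8 CPM in S1-S2-like and 57.3, 59.2, 49.2 and 90.3 in S3-like sums, again without overlap (0.81, SE 0.18, adjusted p = 0.0015). The genes lower in S3-like nuclei were Cox7a2l (-0.50, SE 0.15, adjusted p = 0.023), Uqcrfs1, Uqcrh and Cox6a1 (-0.39, -0.36 and -0.32). Of the regulators, Ppargc1a was lower in S3-like nuclei (-0.95, SE 0.12, adjusted p = 2.3e-06), at 169, 177, 279 and 94.2 against 369.9, 335, 414 and 295 CPM, as were Esrra, Ppara and Esrrg. DESeq2 called 0 members lower in S3-like nuclei (4 unadjusted), against 672 of all 10657 genes, and edgeR 0 without Cont1 (all genes 719 of 10428).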

How the data were processed

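Single-nucleus UMI counts came from 2 tables deposited by the authors, 1 for the controls and 1 for the injured mice; the counts are whole numbers per gene and nucleus, not normalized. Cell Ranger, STAR, Seurat and mm10 are named without versions in the submitters' processing notes; the kit of each library and any use of strand in counting were not stated in any label or header, and the barcode set was read from the barcodes.

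The 27738 nuclei were clustered on genes in both tables, without the members and mitochondrially encoded genes (scanpy 1.11.5, leidenalg 0.10.2; 2000 variable genes, 30 principal components, 20 neighbours, resolution 2). A cluster was named where its marker score was at least 0.5 with 3 or more raised markers and no other kind reached 1.5. The reference of that score, the mean over other clusters, was chosen after a pooled reference left many nuclei unnamed. No doublet caller was run. Members and lists were chosen with earlier results of these data known. Counts were summed per library and class (sums under 10 nuclei left out) and tested with edgeR 4.0.16 (TMM factors, filterByExpr, quasi-likelihood test), with Benjamini-Hochberg adjustment over all genes tested and a threshold of 0.05. Fits against controls held all libraries of the class, fits between classes the libraries compared, and the labels name separate mice. The model was run on simulated counts with the same dispersion for all genes and no barcode-set difference, so that check does not cover such differences. CPM are normalized with the TMM factors of each fit.

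DESeq2 1.42.0, library totals, no filter, gene length, barcode set, another clustering seed and leaving out each library were alternatives. Gene lengths came from GENCODE mouse release 21. Values are given by rule for the 4 Sdh genes and, in each other group, the 2 members with the highest control CPM, the largest called rise and fall at day 28, isoform sets, members called against the main direction, and called regulators. Cox4i1, of 1 isoform set, was not analysed here. Other members (Ndufab1, Ndufb10, Ndufaf3, Ndufaf6, Ndufs6 between states, Uqcrh, Uqcrfs1, Cox7b, Atp5a1, Atp5s and those listed beside them) were named after their values were seen.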

Additional observations from a re-analysis of the deposited data

Results flagged for a closer look

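In PT-like sums of the 4 controls, Cox8a in Cont1 stood at 179.508 CPM, far from the other 3 controls, and Ndufaf6 in Cont3 at 49.0736 CPM. These were 2 of 38 groups tested for a sample far from the others, where chance flags about 1 in 20. The day 28 effect was called different between TAL-like and PT-like nuclei, by a test of the difference itself (edgeR), for Atp5g3 (1.23875 on the log2 scale), Uqcrh (1.01384), Sdhb (0.920769) and Uqcrfs1 (1.5369). These were 4 of 84 members tested, where 2.82% of all genes were called in that direction. With barcode set as a term 0 members were called.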

How the results depend on the processing

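With library totals in place of TMM factors, the counts of called members were 2 (day 7 PT higher), 2 (day 28 PT higher), 1 (day 28 against day 7 higher), 2 (uninjured state higher), 2 (TAL minus PT effect higher), 33 (control TAL minus PT higher), 4 (control distal minus PT higher), 2 (control distal minus PT lower) and 4 (control S3 higher). With barcode set as a term, the counts of called members were 0 (day 7 PT higher), 17 (day 7 PT lower), 4 (day 28 against day 7 lower), 0 (uninjured state higher), 0 (uninjured state lower), 1 (day 28 TAL lower) and 0 (TAL minus PT effect higher). With the gene length trend removed, the counts of called members were 2 (day 28 PT higher), 2 (day 28 against day 7 lower), 33 (day 28 TAL lower), 2 (control distal minus PT higher) and 2 (control distal minus PT lower). Without a filter on low counts, the counts of called members were 2 (day 28 PT higher), 1 (day 28 against day 7 lower), 7 (TAL minus PT effect higher), 3 (control TAL minus PT higher) and 13 (control distal minus PT lower). With K28a as the one injured library, the counts of called members were 0 (day 28 PT higher), 36 (day 28 PT lower), 0 (uninjured state higher), 0 (uninjured state lower) and 1 (day 28 TAL lower). With DESeq2, the counts of called members were 6 (day 28 against day 7 higher), 1 (day 28 against day 7 lower), 2 (TAL minus PT effect higher), 11 (control TAL minus PT higher), 3 (control distal minus PT lower) and 0 (control S3 lower). With the replicate number as a block, the counts of called members were 1 (day 28 against day 7 higher) and 0 (uninjured state higher). With another clustering seed, the counts of called members were 2 (control distal minus PT higher), 3 (control distal minus PT lower) and 0 (control S3 lower). Leaving out each library in turn gave 0 to 1 (day 7 PT higher), 1 to 2 (day 28 PT higher), 1 to 4 (day 28 against day 7 higher), 0 to 4 (day 28 against day 7 lower), 0 to 1 (uninjured state higher), 31 to 63 (uninjured state lower), 27 to 37 (injured against uninjured state lower), 33 to 59 (day 28 TAL lower), 2 to 8 (TAL minus PT effect higher), 6 to 18 (control TAL minus PT higher), 0 to 2 (control distal minus PT higher), 1 to 5 (control distal minus PT lower) and 0 to 4 (control S3 lower). Calls over all genes changed with the setting too. With library totals 1771 of 8265 genes were higher in control TAL against PT. With barcode set as a term 812 of 14936 were lower at day 7, 19 of 12170 in the uninjured state and 47 of 8920 in TAL. With the gene length trend removed 711 of 7729 were lower in TAL. Without a filter 1846 of 16908 were lower in control distal against PT. The cause of these differences was not tested. Of the called members, 4 had the opposite sign under 1 alternative, without being called there. With barcode set as a term at day 7 these were Ndufs7 (from -2.37 to 0.27), Ndufs8 (from -2.91 to 0.09) and Ndufaf3 (from -2.68 to 0.44), and with the gene length trend removed at day 28 in TAL-like sums it was Cox7c (from -1.38 to 0.11). With library totals the median of all genes moved to 0.25 at day 7 and 0.30 at day 28 in PT-like sums. Replicate numbers were not taken to pair the libraries, since 1 of 7 same-numbered pairs had deviations correlated above 0.1. With the replicate block 68 members were lower at day 7, 67 at day 28, 37 in the uninjured state and 45 in TAL-like sums. Over all genes, 2864 and 2464 of 14936, 606 of 12170 and 697 of 8920 were lower in these fits. Small sums limit the genes with few UMIs, and the injured state, with 12 to 17 nuclei per control, was not compared with controls.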
